A study of Mus musculus with 6 samples.

Results

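Chaperones other than the HSP70 proteins were followed in mouse ILC1s, innate lymphocytes that make interferon-γ. The set holds 46 genes chosen by name and by compartment: cytosolic HSP90 and its co-chaperones, HSP40 proteins, nucleotide exchange factors of HSP70, the chaperonin TRiC, mitochondrial and endoplasmic reticulum (ER) chaperones, and heat shock factors. Of these, 45 had a row among the 24628 genes of the expression table and 44 were tested, out of 12731 tested genes. Hspb1, a small heat shock protein, was not analysed here. Serpinh1, the collagen chaperone of the ER, was listed at 0 in 5 libraries and at 0.151 RPKM, or 8 reads, in floxed replicate 3, and fell below the expression filter.

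The study compared 3 libraries titled as carrying floxed Rora alleles (Rorafl/fl) with 3 libraries titled treatment. Rora encodes RORα, a nuclear receptor. The series text sets wild-type ILC1s against conditional knockout (cKO) ILC1s, so the libraries titled treatment were assigned to cKO by elimination. Their columns carry the name Ncr1 beside Rora. In many mouse models Ncr1 names a Cre driver of NK cells and ILCs, but the labels give no driver, age, tissue, sort gate or number of animals, and they list the cells only as lymphocytes. They do not say whether replicates of a group are separate animals, so the p-values measure the spread between these libraries, which may be technical.

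Molecular chaperones hold newly made or damaged proteins in a state from which they can fold. HSP40 proteins deliver clients to HSP70, nucleotide exchange factors release them again, and HSP90 with its co-chaperones finishes many kinases and receptors. TRiC is a ring of related subunits that folds actin and tubulin, HSP60 with HSP10 does similar work in mitochondria, and a separate set serves the ER. HSF1 drives the cytosolic genes through heat shock elements, inverted repeats of GAA, while unfolded protein in the ER acts through other factors and the ER stress element.

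Promoters were read from the RefSeq table (GRCm38.p6, mm10), which held windows of 300 bases for 42 of the 46 genes. The 4 stretches that follow belong to the HSP40 gene with the largest difference and to the genes with the lowest p among those that did not pass. They run 5′ to 3′ on the strand of the gene. The Dnajc3 and Pdia6 stretches end before the first exon base of the authors' gene models. The Dnajb4 stretch lies between exons, inside the longest gene model, and precedes an alternative RefSeq start at 152193845. For Hspd1 the element lies inside an annotated exon of Hspd1 itself, and 30 bases are shown. Capitals mark 2 units of the heat shock element in Dnajb4 and a longer run of such units in Hspd1. In Dnajc3 and Pdia6 they mark the ER stress element.
Dnajb4, chr3:152193846-152194095, minus strand: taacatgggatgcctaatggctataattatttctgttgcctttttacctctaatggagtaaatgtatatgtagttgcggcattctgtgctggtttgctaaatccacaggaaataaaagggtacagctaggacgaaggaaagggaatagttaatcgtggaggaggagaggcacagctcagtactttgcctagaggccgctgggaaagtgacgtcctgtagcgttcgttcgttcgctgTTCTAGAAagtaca
Hspd1, chr1:55088053-55088082, minus strand: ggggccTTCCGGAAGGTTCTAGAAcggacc
Dnajc3, chr14:118937682-118937931, plus strand: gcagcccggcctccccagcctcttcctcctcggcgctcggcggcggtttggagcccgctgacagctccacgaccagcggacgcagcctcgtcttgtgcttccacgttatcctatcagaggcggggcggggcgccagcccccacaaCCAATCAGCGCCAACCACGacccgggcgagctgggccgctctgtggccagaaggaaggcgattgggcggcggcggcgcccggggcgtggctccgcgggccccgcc
Pdia6, chr12:17266339-17266544, plus strand: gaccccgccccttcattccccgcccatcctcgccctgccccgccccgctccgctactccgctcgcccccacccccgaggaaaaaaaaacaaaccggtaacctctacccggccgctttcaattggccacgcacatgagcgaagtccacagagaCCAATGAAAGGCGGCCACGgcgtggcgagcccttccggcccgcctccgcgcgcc

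Expression was measured as RPKM, in which reads are divided by the length of the gene and the depth of the library. The libraries held 20152146 to 22440170 reads on genes, and the first principal component, with 26.5% of the variance, placed the groups apart. Of 18 markers of ILC1s and NK cells all 18 were tested, and 6 differed between the groups by limma. Limma called 0.652% of all tested genes higher and 0.668% lower. Voom called 2 of the markers higher and 5 lower, where it called 1.78% and 2.41% of all tested genes. Voom alone called Itga1 (log2 difference -0.33, voom adjusted p = 0.0378), named here because of that call. Eomes (log2 difference 0.62) and Gzma (0.64) rose, and Ncr1 (-0.60), Cxcr6 (-0.80), Il7r (-0.26) and Gzmb (-0.41) fell. Klrb1c, which did not pass, was at 96.3 to 107 RPKM in the 6 libraries. Rora itself was at 6.92, 7.41 and 7.91 RPKM in floxed and 5.69, 6.29 and 6.24 RPKM in cKO libraries. Its log2 difference was -0.25 (limma adjusted p = 0.242), the groups did not overlap, and voom called it (adjusted p = 0.0242). Xist lay at 28.3 to 34.2 RPKM in floxed and 9.09 to 9.86 RPKM in cKO libraries, and the Y-linked gene Ddx3y at 10.0 to 11.0 and 20.52 to 21.3 RPKM. Xist, a gene expressed in female cells, and Ddx3y were both present in all 6 libraries. The sex composition may thus differ between the groups, and here it cannot be told apart from genotype. The part of the marker, Xist and Ddx3y differences in any result was not tested.

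Hsp90aa1 and Dnajb4 were the 2 chaperone genes that rose in cKO libraries, and none fell, at a limma adjusted p under 0.05 over all tested genes. That rule called 0.652% of tested genes higher and 0.668% lower. At an unadjusted p under 0.05, 5 of the 44 chaperone genes were higher and 8 lower, where 5.55% of all tested genes were higher and 8.6% lower. A second method, limma's voom on the whole reads recovered from RPKM, called 4 higher and 4 lower, where it called 1.78% and 2.41% of tested genes. The median log2 difference of RPKM + 1, always cKO minus floxed, was -0.03 over the 44 chaperone genes and -0.03 over all tested genes. In these bulk libraries, fewer cells of a type and less RNA per cell cannot be told apart.

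Groups that did not overlap were seen for 6 chaperone genes on the higher side (7.61% of tested genes) and 9 on the lower side (12.7%). The 6 were Hsp90aa1, Hsp90ab1, Dnajb1, Dnajb4, Dnajb6 and Bag3, which are cytosolic chaperones or helpers of HSP70. Among the 9 were 3 TRiC subunits (Cct4, Cct5, Cct6a), mitochondrial Hspd1, and Dnajc3 and Pdia6 of the ER. The others were Ptges3, Cacybp and Dnaja1 of the cytosol.

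**Figure D1:**
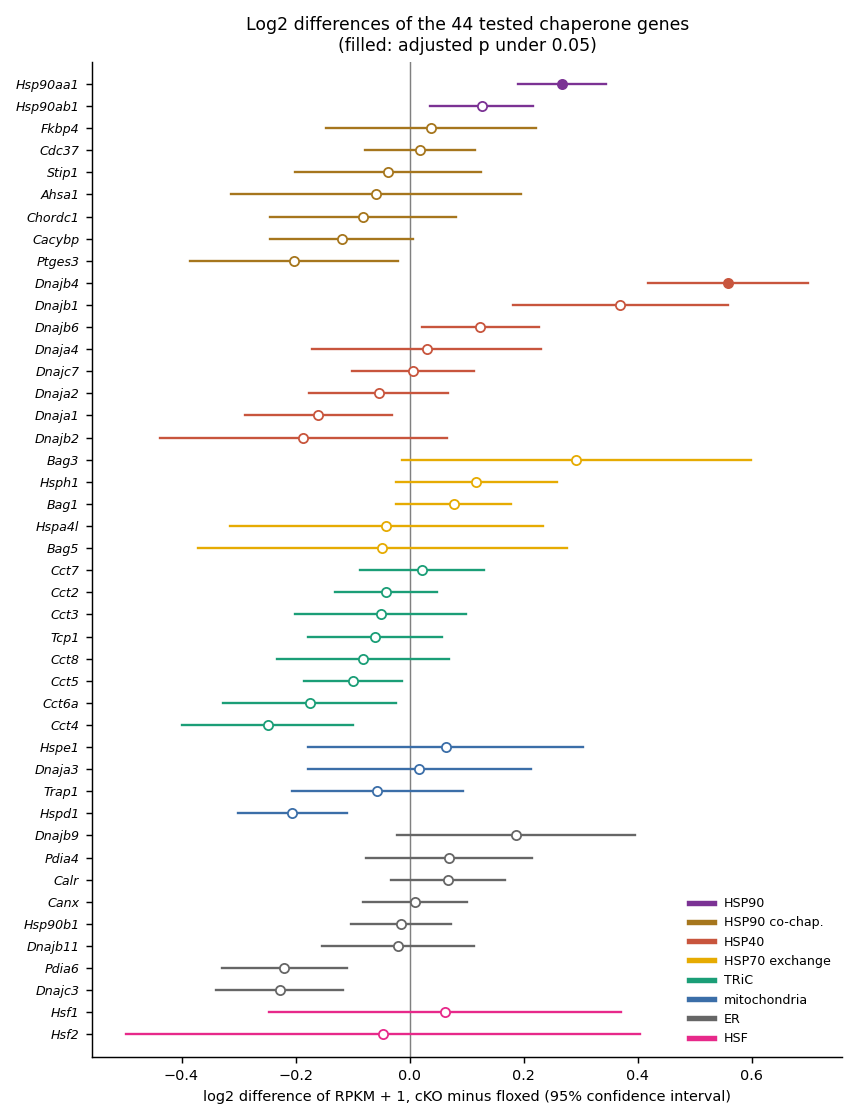
Log2 difference of RPKM + 1, cKO minus floxed, for the 44 tested chaperone genes grouped by role, with lines for the 95% confidence interval (limma, 3 libraries per group). Filled points mark Hsp90aa1 at 0.27 and Dnajb4 at 0.56, which passed, and 7 of the 8 TRiC subunits lie below 0.

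Hsp90aa1, the inducible form of cytosolic HSP90 (chromosome 12, 110690605 to 110702728, minus strand, mm10), was at 284, 288 and 283 RPKM in floxed libraries and at 345, 342 and 343 RPKM in cKO libraries. The cKO values were tightly grouped and all lay above the floxed values. The mean rose from 285 ± 2.92 to 343 ± 1.34 RPKM (SD, n = 3 each), which is 120.4% of the floxed level. Its log2 difference was 0.27 (SE 0.03, 95% interval 0.19 to 0.34, adjusted p = 0.0165), resting on 22850 to 30415 reads per library. The call held in 8 of 16 alternative analyses, with adjusted p from 7.49e-07 to 0.126. Without floxed replicate 1 or 3 it was lost (adjusted p = 0.0552 and 0.0884), as it was without cKO replicate 1, 2 or 3 (0.0926, 0.0911 and 0.0744), while the difference stayed between 0.24 and 0.30.

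Hsp90ab1, the constitutive form (chromosome 17, 45567775 to 45573271, minus strand), was at 1363, 1290.1 and 1323 RPKM in floxed and 1462, 1429 and 1449 RPKM in cKO libraries. It ranked 17 by mean RPKM among all genes. The groups did not overlap, with the cKO mean at 109% of the floxed mean. Its log2 difference of 0.13 (SE 0.04, 95% interval 0.04 to 0.22) did not pass (adjusted p = 0.207), although voom called it (adjusted p = 0.000437). The ratio of Hsp90aa1 to Hsp90ab1 RPKM was 0.208, 0.224 and 0.214 in floxed and 0.236, 0.240 and 0.236 in cKO libraries. The inducible form was thus the minor one in every library, and its share was larger in each cKO library.

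None of the 7 HSP90 co-chaperones passed in either direction by limma or voom. At an unadjusted p under 0.05, 1 was lower (8.6% of all tested genes). Stip1, which bridges HSP70 and HSP90, had the highest level of the class, at 98.0, 96.7 and 104 RPKM in floxed and 100.2, 103 and 87.8 RPKM in cKO libraries. These values overlapped, with a log2 difference of -0.04 (95% interval -0.20 to 0.13). Ptges3, the p23 protein that holds HSP90 in its closed state, was at 21.5, 22.1 and 19.5 RPKM in floxed and 16.7, 18.4 and 19.4 RPKM in cKO libraries. The lowest floxed and the highest cKO value nearly met, and its difference of -0.20 (SE 0.08) did not pass (adjusted p = 0.311).

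Cacybp, which binds HSP90 through a p23-like domain, was also separated at a small distance, at 37.5 to 39.9 RPKM in floxed and 33.8 to 36.8 RPKM in cKO libraries. Cdc37, the kinase-specific co-chaperone, had means of 87.9 and 89.1 RPKM. Ahsa1, the activator of the HSP90 ATPase, ranged from 85.2 to 111 RPKM among the floxed libraries alone and from 85.6 to 101.3 RPKM in cKO. Fkbp4, a partner of steroid receptors, and Chordc1 differed by 0.04 and -0.08 on the log2 scale. The class as a whole took 1395 ± 19.5 RPM (reads scaled to library depth alone) in floxed and 1378 ± 27.6 RPM in cKO libraries (n = 3 each), with overlap, while the 2 HSP90 genes went from 5096 ± 99.98 to 5688 ± 53.1 RPM without overlap.

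Of a further 20 HSP90 co-chaperones, 19 were tested and none passed in either direction by limma. Without adjustment 4 were lower and none higher at a p under 0.05, where 8.6% of all tested genes were lower. Voom called 1 lower, Tomm34, named here because of that call. Tomm34 was at 24.5, 24.7 and 26.6 RPKM in floxed and 20.4, 20.4 and 21.96 RPKM in cKO libraries. The median log2 difference of the 19 was -0.11, beside -0.03 over all tested genes.

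Dnajb4 showed the largest difference of the set. This HSP40 protein of the cytosol is a close relative of Dnajb1, and its gene lies on the minus strand of chromosome 3 (152178511 to 152210302). Floxed libraries held it at 9.56, 9.77 and 9.50 RPKM and cKO libraries at 14.1, 14.5 and 15.3 RPKM. The gap between the groups was wider than the range of either. The mean rose from 9.61 ± 0.141 to 14.6 ± 0.600 RPKM (SD, n = 3 each), or 152% of the floxed level. Its log2 difference was 0.56 (SE 0.06, 95% interval 0.42 to 0.70, adjusted p = 0.00985), from 1725 to 2953 reads per library, and 12 of 16 alternatives kept the call (adjusted p 6.98e-07 to 0.0738). The call was lost without floxed replicate 3 (adjusted p = 0.0550), cKO replicate 2 (0.0596) or cKO replicate 3 (0.0532).

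Dnajb1, the main stress-inducible HSP40 protein (chromosome 8, 83608193 to 83612653, plus strand), was at 32.2, 31.8 and 35.8 RPKM in floxed and 39.1, 45.5 and 45.4 RPKM in cKO libraries. The groups were separate, with cKO replicate 1 nearest to the floxed values, and the cKO mean was 130.2% of the floxed mean. Its log2 difference of 0.37 (SE 0.08) did not pass in limma (adjusted p = 0.103) and passed in voom (adjusted p = 0.0015). Dnajb6, which keeps aggregation-prone proteins soluble, was at 43.3 to 45.7 RPKM in floxed and 48.0 to 49.5 RPKM in cKO libraries. Its difference was 0.12 (adjusted p = 0.273).

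The type A proteins Dnaja1 and Dnaja2 had negative differences. Dnaja1 was at 49.1, 49.4 and 50.6 RPKM in floxed and 47.2, 43.9 and 42.1 RPKM in cKO libraries, all lower. Its difference of -0.16 did not pass in limma (adjusted p = 0.264) and was called by voom (adjusted p = 0.0451). Dnaja2, the most abundant of the 8 HSP40 members outside the ER, was at 96.9, 90.6 and 87.3 RPKM in floxed and 87.4, 86.2 and 90.9 RPKM in cKO libraries, which overlapped (-0.05, adjusted p = 0.707). Dnaja4, Dnajc7, which links HSP70 and HSP90, and Dnajb2, known from neurons, had differences of 0.03, 0.01 and -0.19 with overlapping groups. Among the authors' gene models, 44.1% of the exon bases of Dnaja4 are shared with Wdr61 on the opposite strand, and the sources used here do not say whether counting kept the strand.

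In all, 1 of the 8 HSP40 genes passed as higher and none as lower by limma, with 3 higher and 1 lower at an unadjusted p under 0.05 (5.55% and 8.6% of all tested genes). Of 28 further HSP40 genes, 24 were tested and none passed by limma or voom. Among them 1 was higher and 2 were lower at an unadjusted p under 0.05, and the median difference was -0.03. Summed reads of the 8 were 1654 ± 19.7 RPM in floxed and 1699.8 ± 7.78 RPM in cKO libraries, 103% of the floxed level without overlap. Sums over a class are a description and were not tested.

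**Figure D2:**
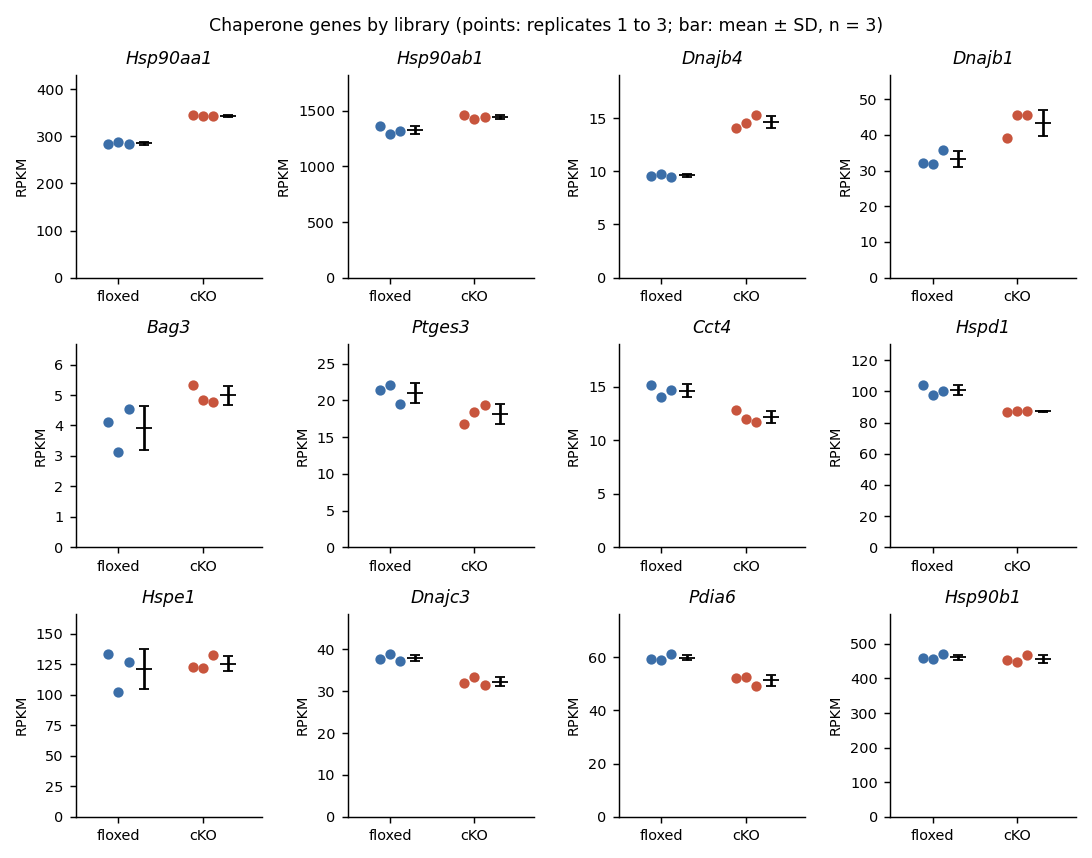
RPKM of 12 chaperone genes in each library, with points for replicates 1 to 3 of the floxed and cKO groups and bars for mean ± SD (n = 3). Dnajb4 lies at 9.50 to 9.77 RPKM in floxed and 14.1 to 15.3 RPKM in cKO libraries, whereas Hsp90b1 and Hspe1 overlap between the groups.

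The 5 nucleotide exchange factors of HSP70 included no gene that passed in either direction by limma or voom, and none at an unadjusted p under 0.05. Bag1, the most abundant of them, was at 214, 232 and 219.7 RPKM in floxed and 238, 233 and 232 RPKM in cKO libraries. The highest floxed library reached the cKO values, and the difference was 0.08 (95% interval -0.02 to 0.18). Bag3, a stress-induced factor that sends HSP70 clients to autophagy, was at 4.10, 3.118 and 4.55 RPKM in floxed and 5.34, 4.84 and 4.78 RPKM in cKO libraries.

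Bag3 groups did not overlap, but the floxed libraries varied by 18.6% of their mean, and only 161 to 307 reads per library lay behind these values. Its difference of 0.29 had a 95% interval of -0.01 to 0.60 (adjusted p = 0.373). Hsph1, the HSP110 protein, had means of 26.2 and 28.4 RPKM with overlap, and its relative Hspa4l was at 1.92 to 2.36 RPKM throughout. Bag5 was at 18.5 to 24.3 RPKM in floxed and 17.2 to 22.8 RPKM in cKO libraries. The 5 genes together went from 579.6 ± 7.52 to 612 ± 13.7 RPM (n = 3 each) without overlap.

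Of the 8 TRiC subunits 7 had a negative log2 difference, from -0.25 for Cct4 to -0.04 for Cct2, and Cct7 was at 0.02. Over all tested genes 57.3% lay below 0. None of the 8 passed by limma or voom, 3 were lower at an unadjusted p under 0.05 (8.6% of all tested genes), and no subunit changed sign under any of the 16 alternatives. Cct4 was at 15.2, 14.02 and 14.7 RPKM in floxed and 12.8, 11.95 and 11.7 RPKM in cKO libraries. These groups were separate, with the cKO mean at 83.1% of the floxed mean (log2 difference -0.25, SE 0.06, adjusted p = 0.154).

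Cct5 was at 98.6 to 102 RPKM in floxed and 92.9 to 93.6 RPKM in cKO libraries, and Cct6a at 35.9 to 41.0 and 32.9 to 35.2 RPKM. Both were separate between groups, with adjusted p = 0.293 and 0.292. Cct2, the most abundant subunit, was at 160.1, 152 and 159 RPKM in floxed and 151, 153 and 154 RPKM in cKO libraries, with overlap. The other subunits, Tcp1, Cct3 and Cct8, had differences of -0.06, -0.05 and -0.08.

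Levels of the TRiC transcripts were unequal although the complex holds 1 copy of each subunit per ring: floxed means ran from 14.6 RPKM for Cct4 to 157 RPKM for Cct2. Summed reads of the 8 genes were 1579 ± 8.39 RPM in floxed and 1503 ± 14.7 RPM in cKO libraries (n = 3 each). All 3 cKO sums lay below all 3 floxed sums, at 95.1% of the floxed mean. Of the prefoldin subunits and other TRiC helpers, 9 were tested and none passed by limma or voom or at an unadjusted p under 0.05, with a median of -0.09.

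**Figure D3:**
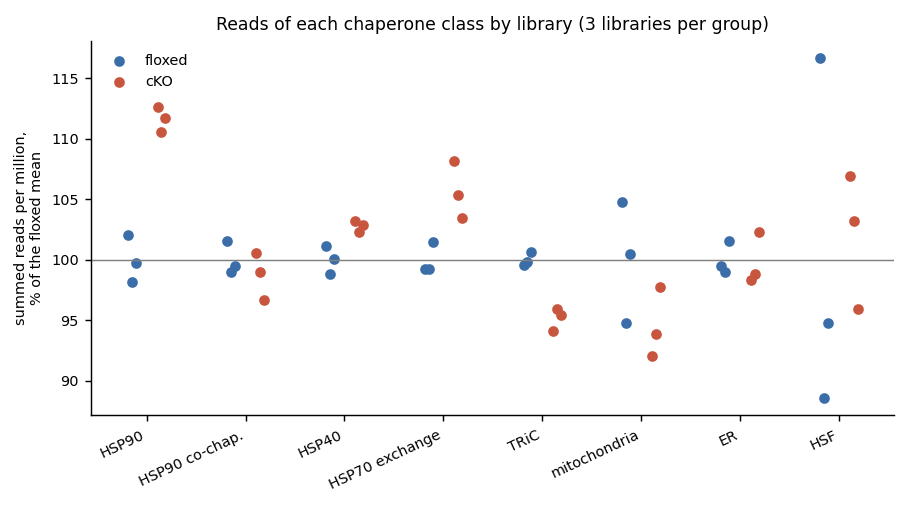
Summed reads (RPM) of each chaperone class in each library, as a percentage of the floxed mean of that class (3 libraries per group). The HSP90 pair, HSP40 proteins and exchange factors lie higher in cKO libraries and TRiC lower, without overlap, while the ER, mitochondrial and co-chaperone classes overlap.

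Hspd1 and Hspe1 form the mitochondrial HSP60 and HSP10 chaperonin and lie head to head on chromosome 1, on opposite strands. Hspd1 (55077835 to 55088243, minus strand) was at 104, 97.8 and 100.2 RPKM in floxed and 86.9, 87.2 and 87.7 RPKM in cKO libraries. The groups were separate and the cKO values close together, at 86.6% of the floxed mean. Its log2 difference of -0.21 (SE 0.04, 95% interval -0.30 to -0.11) did not pass in limma (adjusted p = 0.0782) and passed in voom (adjusted p = 0.0131). Hspe1 (55088132 to 55091307, plus strand) was at 133, 102 and 127 RPKM in floxed and 123, 122 and 132 RPKM in cKO libraries.

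Hspe1 overlapped between groups, with floxed replicate 2 below all other libraries, and its difference of 0.06 (95% interval -0.18 to 0.30) changed direction to -0.052 without that library. The ratio of Hspe1 to Hspd1 was 1.28, 1.04 and 1.27 in floxed and 1.41, 1.40 and 1.51 in cKO libraries, higher in all 3 cKO libraries. The gene models share 112 exon bases on opposite strands, 4.24% of Hspd1 and 7.60% of Hspe1. Trap1, the mitochondrial HSP90, and Dnaja3, an HSP40 protein of the matrix, differed by -0.06 and 0.02 with overlap. Of 13 other genes of mitochondrial protein quality control, none passed by limma or voom, and the median was -0.03. At an unadjusted p under 0.05, 1 was lower (8.6% of all tested genes).

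ER chaperones as a class took 4327 ± 59.7 RPM in floxed and 4319 ± 93.1 RPM in cKO libraries (n = 3 each). Hsp90b1, the HSP90 protein of the ER known as GRP94, was at 458, 455 and 470.0 RPKM in floxed and 453, 447 and 469 RPKM in cKO libraries. These values interleaved, and the 95% interval of the log2 difference was -0.10 to 0.07 around -0.02. Calr, a lectin chaperone, was at 360.1 to 376 RPKM in floxed and 375 to 401 RPKM in cKO libraries (0.07, adjusted p = 0.547). Its membrane-bound partner Canx had means of 98.9 and 99.5 RPKM.

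Unlike Hsp90b1, Calr and Canx, Dnajc3 and Pdia6 lay lower in every cKO library. Dnajc3, a helper of the ER HSP70 protein that also restrains the stress kinase PERK, was at 37.8, 38.9 and 37.3 RPKM in floxed and 32.1, 33.4 and 31.4 RPKM in cKO libraries. The cKO mean was 85.0% of the floxed mean, with a log2 difference of -0.23 (SE 0.05, adjusted p = 0.0904, voom adjusted p = 0.0111). Pdia6, a disulfide isomerase, was at 59.3, 59.0 and 61.1 RPKM in floxed and 52.2, 52.5 and 48.9 RPKM in cKO libraries. Its mean stood at 85.7% of the floxed level (-0.22, SE 0.05, adjusted p = 0.0968, voom adjusted p = 0.0125). Neither passed in limma, although for each gene the gap between the groups was wider than the SD of either.

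Pdia4, another disulfide isomerase, went the other way at 0.07 with overlap. Dnajb9, a target of the ER stress factor XBP1 that returns misfolded proteins for degradation, was at 30.9, 34.3 and 28.3 RPKM in floxed and 33.0, 38.6 and 35.2 RPKM in cKO libraries. These overlapped (0.19, 95% interval -0.02 to 0.40). Dnajb11 was at 57.6 to 60.9 RPKM in floxed and 55.3 to 62.4 RPKM in cKO libraries. In all, none of the 8 tested ER genes passed by limma, and 2, Dnajc3 and Pdia6, were lower at an unadjusted p under 0.05 (8.6% of all tested genes), which voom also called.

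A pair of sets that bear on the ER genes were read beside them. Of 28 genes of the ER stress response 24 were tested, and by limma 2 rose and none fell. At an unadjusted p under 0.05, 4 were higher and 5 lower (5.55% and 8.6% of all tested genes). Those that rose were Ddit3, the stress factor CHOP, from 43.9 ± 1.06 to 69.9 ± 3.34 RPKM, and Ppp1r15a, which restarts translation after stress, from 434 ± 5.85 to 615 ± 20.1 RPKM (SD, n = 3 each). Voom called 3 higher, these 2 and Atf4, and 4 lower, Atf6, Ern1, Xbp1 and Pdia3. Atf4 and the 4 lower genes are named after their values were seen. Atf4 was at 174, 158 and 160 RPKM in floxed and 198, 191 and 217 RPKM in cKO libraries. Its log2 difference was 0.30 (limma adjusted p = 0.0976, voom adjusted p = 0.000678). Xbp1 was at 25.9, 27.9 and 27.4 RPKM in floxed and 20.7, 21.2 and 23.8 RPKM in cKO libraries. The median of the 24 was -0.04.

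Plasma cells are rich in ER chaperones, so their 10 markers were examined as well. Of these 8 had a row and 2, Xbp1 and Prdm1, were tested, of which Xbp1 was lower at an unadjusted p under 0.05. Their summed level was 29.7 to 31.6 RPKM in floxed and 23.7 to 26.7 RPKM in cKO libraries. Most of that sum was Xbp1, with means of 27.1 and 21.9 RPKM, so it largely repeats the values of that gene. Jchain and Mzb1, which define the cell type, were listed at 0 in all cKO libraries and at no more than 0.305 RPKM in floxed ones.

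Genes listed as markers of other cell types also differed, and these bulk values do not show which cells carried them. Of 12 B cell markers 4 were tested and 1 fell, Cd22, from 9.93 to 6.49 RPKM (means, n = 3 each). Their summed level was 80.7 to 86.3 RPKM in floxed and 80.7 to 91.9 RPKM in cKO libraries. That sum was carried by Ighm, with means of 65.6 and 76.2 RPKM, while Cd79b went from 1.71 to 0.866, Fcer2a from 0.667 to 0.129, Pax5 from 0.374 to 0.121 and Ms4a1 from 0.318 to 0.103 RPKM. Of 12 dendritic cell markers 7 were tested and 2 fell by limma, H2-Ab1 and Cd74. Voom called 1 higher, Itgax (adjusted p = 0.0127), named here because of that call. Floxed sums of the list, 193 to 196 RPKM, lay above the cKO sums, 157 to 164 RPKM. Counted in RPM the groups overlapped, with floxed sums of 466 to 497 and cKO sums of 448 to 474. Clec9a and Siglech were near 0.

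Of 12 T cell markers 9 were tested, Cd3e fell (log2 difference -0.69, adjusted p = 0.0232) and Cd247 rose (0.30, adjusted p = 0.0344). Floxed sums were 118 to 125 RPKM and overlapped the cKO sums, 118 to 124 RPKM. Counted in RPM the T cell sums were separate and higher in cKO, with floxed sums of 394.9 to 411.6 and cKO sums of 412.1 to 432.7. Of 14 macrophage and monocyte markers 6 were tested and none passed by limma. At an unadjusted p under 0.05, 1 was higher and 2 were lower (5.55% and 8.6% of all tested genes). Ly6c2 among them was lower by voom (adjusted p = 0.0106). Floxed sums, 76.6 to 80.4 RPKM, lay above the cKO sums, 72.9 to 76.0 RPKM. Counted in RPM these macrophage and monocyte sums overlapped, with floxed sums of 319 to 333 and cKO sums of 327 to 346. Few markers of further cell types were tested: 3 of ILC3s, 2 of erythroid cells, 1 of stromal cells and 1 of liver cells. None of these passed by limma or voom. No neutrophil marker reached the expression filter, so none could pass. Without adjustment 1 ILC3 marker was higher, and 1 erythroid and 1 stromal marker were lower, at a p under 0.05. The part of these cells in the differences of Hspd1, Dnajc3 and Pdia6 was not tested.

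Hsf1, the factor that drives heat shock genes, was at 12.2, 8.63 and 10.7 RPKM in floxed and 12.04, 10.00 and 10.8 RPKM in cKO libraries. The ranges overlapped almost wholly, with a log2 difference of 0.06 (95% interval -0.25 to 0.37). Hsf2 was at 2.23 to 3.49 RPKM in floxed and 2.26 to 3.72 RPKM in cKO libraries. Neither passed by limma or voom or at an unadjusted p under 0.05, and transcript levels do not show the activity of these factors, which is set on the protein. Of small heat shock proteins, other BAG proteins and HSF regulators, 7 were tested and none passed by limma or voom or at an unadjusted p under 0.05.

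Within the HSP70 family, which these genes serve, the stress-inducible pair Hspa1a and Hspa1b rose. Of 10 tested members 2 rose and none fell by limma. At an unadjusted p under 0.05, 4 were higher and 1 lower (5.55% and 8.6% of all tested genes). Voom called 3 higher and none lower. Beside the pair, voom called Hspa5, the HSP70 protein of the ER, named here because of that call. Hspa5 was at 217, 209 and 213 RPKM in floxed and 237, 236 and 247 RPKM in cKO libraries. Its log2 difference was 0.17 (limma adjusted p = 0.108, voom adjusted p = 0.00193), and its promoter window held the ER stress element. The median of the 10 was 0.04. Hspa1a was at 12.2, 9.35 and 10.4 RPKM in floxed and 45.6, 42.1 and 42.5 RPKM in cKO libraries, a log2 difference of 1.94. Its near-identical copy Hspa1b went from 34.3 ± 1.16 to 116 ± 6.07 RPKM (1.73), and reads may be divided between the pair. Set beside them, the differences of 0.56 in Dnajb4, 0.37 in Dnajb1 and 0.27 in Hsp90aa1 were smaller.

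Immediate-early genes, which also respond to cell handling and tissue dissociation, were mostly higher in cKO libraries. Of 30 listed genes 29 were tested, 18 rose and none fell by limma, with a median log2 difference of 0.49. Without adjustment 23 were higher and 2 lower at a p under 0.05 (5.55% and 8.6% of all tested genes), while voom had 21 higher and 1 lower. Fos went from 168 ± 0.819 to 346 ± 13.7 RPKM and Klf4 from 44.03 ± 0.201 to 92.5 ± 2.998 RPKM (SD, n = 3 each). The summed level of the list was 2929.7 to 2962 RPKM in floxed and 4411 to 4441 RPKM in cKO libraries, and its part in the differences of Hsp90aa1 and Dnajb4 was not tested.

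**Figure D4:**
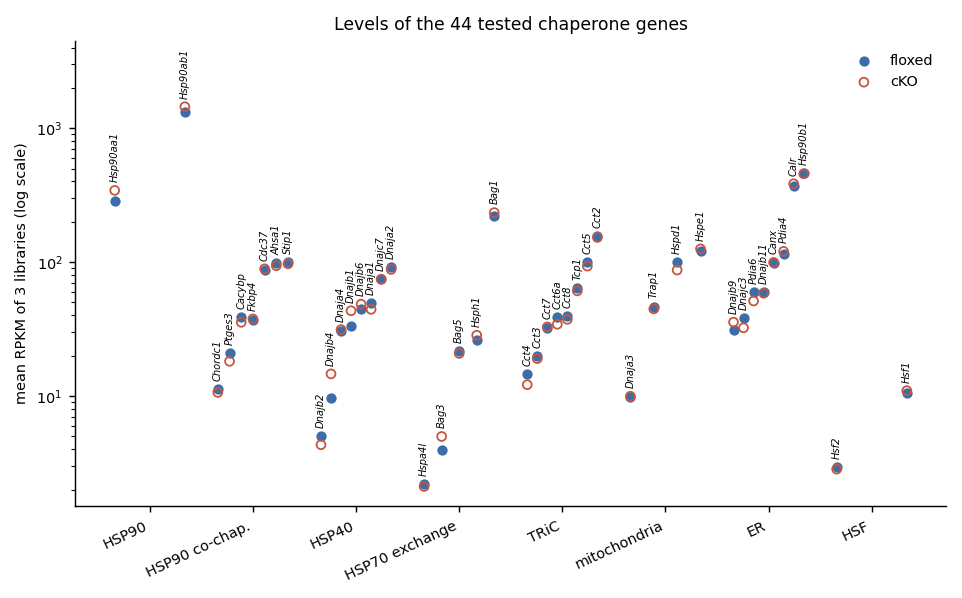
Mean RPKM over 3 libraries (log scale) of the 44 tested chaperone genes in floxed (filled) and cKO (open) libraries, grouped by role. Levels run from about 2.20 RPKM for Hspa4l to 1325 RPKM for Hsp90ab1 in floxed libraries, and the 2 symbols of a gene nearly coincide for most genes.

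Levels of the chaperone genes covered a wide range and were reproducible. All 45 together took 1.53% of reads in floxed and 1.58% in cKO libraries. Hsp90ab1 stood highest, followed by Hsp90b1, Calr and Hsp90aa1, and Hspa4l, Hsf2, Bag3 and Dnajb2 were lowest among tested members. The median coefficient of variation within a group was 3.85% in floxed and 4.57% in cKO libraries for the 44 genes, against 9.75% and 9.42% over all tested genes. The sets were not matched for level, so these medians do not show that chaperone genes vary less than other genes of like level. The widest spreads within floxed libraries were those of Hsf2 (22.1%), Bag3 (18.6%), Hsf1 (17.2%), Hspe1 (13.6%), Bag5 (13.5%) and Ahsa1 (13.3%).

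The promoter windows, 250 bases before to 50 after each RefSeq start, were searched on both strands. The heat shock motif as GAANNTTC was in 7.86% of all 32851 windows and in at least 1 window of 11 chaperone genes, and as TTCNNGAA in 8.52% and 9 genes, with overlap between the orders allowed. Either order was in 15.1% of windows and in 15 of the 42 genes. A run of 3 alternating units was in 0.603% of windows and in 5 of the 42 genes, Chordc1, Dnajb6, Hspd1, Hspe1 and Hsph1. The ER stress element, CCAAT and CCACG spaced by 9 bases, was in 0.119% of windows and in 5 genes, all of the ER class: Calr, Canx, Dnajc3, Hsp90b1 and Pdia6. Genes can have several windows, so these shares are not on the same footing as counts of genes.

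In the Dnajb4 stretch shown above, TTCTAGAA begins 14 bases before the RefSeq start, and the other Dnajb4 window held no match. In Hspd1 the run begins 144 bases before the start, and 285 of the 300 bases of that window also belong to the window of Hspe1, which carries the same run on the other strand. The ER stress element begins 105 bases before the start in Dnajc3 and 98 in Pdia6. Neither of the Dnajb1 windows held a match to either element, and Hsp90aa1, Hsp90ab1, Cct4 and Hsf1 were not in the promoter table.

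Members with the same element did not share a direction. The 5 genes with 3 units ran from -0.21 for Hspd1 to 0.12 for Dnajb6, with a median of 0.06, and the 9 other genes with 2 units had a median of 0.02, with Dnajb4 and Bag3 highest and Cct6a lowest. The 5 genes with the ER stress element had a median of -0.02, with Dnajc3 and Pdia6 lower and Hsp90b1, Canx and Calr near 0. The 21 with neither had a median of -0.05. A match describes these letters only and shows no binding.

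**Figure D5:**
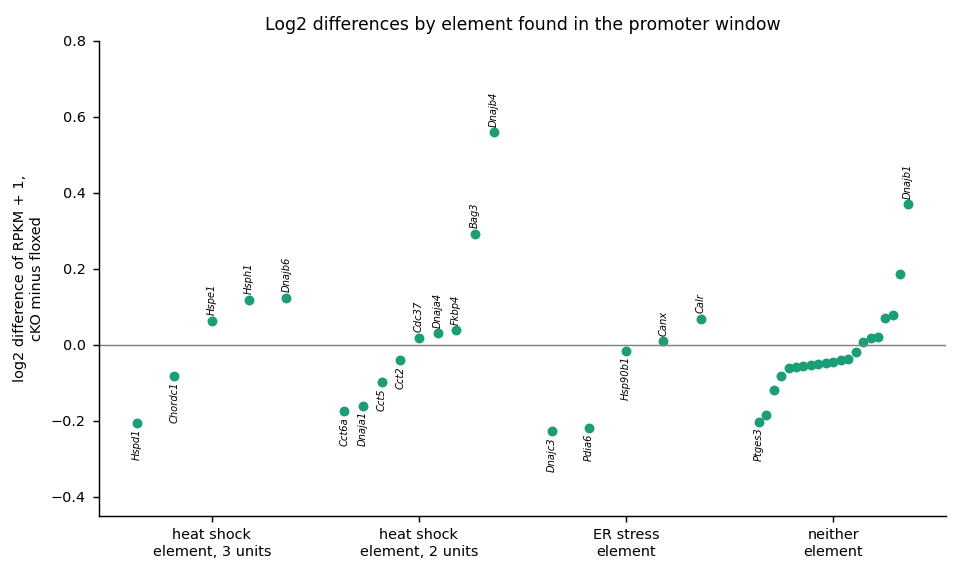
Log2 difference (RPKM + 1, cKO minus floxed) of chaperone genes grouped by the element found in their promoter windows, 1 point per gene, without the 4 genes that have no window. In the group with neither element only Dnajb1 and Ptges3 are named, and each group holds genes on both sides of 0.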

How the data were processed

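RNA-seq libraries of 3 floxed and 3 cKO samples were analysed. Per the labels' protocols, a stranded mRNA kit was used on 2 µg of TRIzol-extracted RNA. The submitters' processing notes name the build mm10 and the tools STAR 2.5.3a, Subread 1.5.1 with featureCounts, and edgeR 3.12.1. The sources used here do not give the strand setting, annotation or treatment of duplicate and multi-mapping reads, and 15 of the 45 genes share exon bases with another gene. The values deposited by the authors are RPKM per gene. RPKM times gene length gave whole reads for 100% of values (tolerance 0.01 reads), 20152146 to 22440170 per library, and summed reads are given as RPM. Intervals cover the spread between libraries.

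Testing took genes that reached 1 RPKM in 3 or more of the 6 libraries and used limma 3.58.1 in R 4.3.3 on log2(RPKM + 1) (lmFit, then eBayes with a mean-variance trend), a scale that understates changes of low genes. Tests were two-sided, with Benjamini-Hochberg adjustment over all 12731 tested genes and a threshold of 0.05. Between single libraries, chi-square per gene on recovered reads (at least 500 summed) was 6.79 to 15.8 within and 19.9 to 28.6 between groups, so none was taken as a duplicate. Alternatives changed the pseudocount, filter, scaling, variance model or test (voom on recovered reads), added a replicate block or left out 1 library. The procedure was tested on simulated data.

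The members and all gene lists were chosen with earlier results of these data known. Values in every library are given for members that passed, for those with separate groups and a log2 difference of 0.2 or more in size, and for the most abundant member of each role. Of the other lists at most 3 passing genes by smallest p are named, unless stated. Coordinates are those of the deposited table, and promoters come from RefSeq.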

Additional observations from a re-analysis of the deposited data

How the results depend on the processing

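Genes called over the whole table were 83 higher and 85 lower. Without a filter on low values these became 44 and 36, with voom 226 and 307, and without a mean-variance trend 39 and 35. Leaving out 1 library gave 33 to 51 higher and 27 to 39 lower. The 2 chaperone genes called higher became 1 without a filter, 4 with voom, 1 without a trend, and 0 to 2 with 1 library left out, and those called lower became 4 with voom. Hsp90aa1 lost its call without a filter (adjusted p = 0.0518) and without a trend (0.126). With the replicate block, 37 genes were higher and 23 lower, and of the chaperone genes 0 were called higher (Hsp90aa1 adjusted p = 0.0876, Dnajb4 0.0738). Deviations from the group mean had correlations of -0.03 to 0.04 between libraries with the same replicate number. Between libraries with different numbers they were -0.10 to 0.09. With 3 libraries per group these values cannot show whether the numbers are a pairing, and the labels do not say. Of 700 values recomputed, 24 changed sign, in 13 genes whose log2 difference was at most 0.06 in size. Under quantile normalization Dnajc7 went to -0.014 and Hspa4l to 0.00055, and under median-of-ratios scaling Hsp90b1 went to 0.015 and Dnajb11 to 0.0093. With 1 library left out, the range was -0.16 to 0.033 for Ahsa1, -0.083 to 0.032 for Stip1, -0.028 to 0.096 for Dnaja4, -0.020 to 0.030 for Dnajc7, -0.15 to 0.075 for Bag5, -0.052 to 0.14 for Hspe1, -0.051 to 0.075 for Dnaja3, -0.066 to 0.019 for Dnajb11, -0.0023 to 0.027 for Canx, -0.062 to 0.17 for Hsf1 and -0.20 to 0.064 for Hsf2. The median over the chaperone genes stayed between -0.04 and 0.01. The cause of these changes was not tested. Among the tested chaperone genes Hsf2, at 126 to 205 reads per library, had the widest interval of the log2 difference (-0.50 to 0.40). Bag5 came next (-0.37 to 0.28), although it had 933 to 1321 reads per library. Bag3, at 161 to 307 reads per library, had a narrower interval than Bag5 (-0.01 to 0.60).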
